A study of Mus musculus with 2 samples.

Results

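In colitis-associated colon tumors (CACs) of mice, 9 genes of type 2 immunity were followed: the cytokine genes *Il4*, *Il5* and *Il13*, the receptor genes *Il4ra*, *Il13ra1*, *Il2rg* and *Il9r*, and *Gata2* and *Gata3*, which encode zinc finger transcription factors. They were chosen by name, as 9 of the 32291 genes in the table, and were read in each of 11 annotated cell types, above all in mast cells and basophils. Tumors had been induced with the carcinogen azoxymethane (AOM, 10 mg/kg) and 3 cycles of dextran sodium sulfate (DSS) in the drinking water, at 2.5% in the first cycles and 2% in cycle 3. Mice entered at 6 to 10 weeks of age and were sacrificed on day 110. From each genotype, 6 to 8 tumors of 3 mice were combined, and 30000 cells were loaded for single-cell RNA sequencing with 3′ chemistry, which gave 1 library for Mir34a_F/F and 1 for Mir34a_Mye_KO. All of these mice carried the floxed *Mir34a* allele. Mir34a_Mye_KO mice also carried *LysM-Cre*, which is driven from the *Lyz2* locus and is known to act in macrophages, monocytes and neutrophils. Whether recombination reached mast cells or basophils was not measured, and the cell annotation names no mouse.

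IL-4, IL-5 and IL-13 are secreted mainly by T helper 2 cells, group 2 innate lymphoid cells, mast cells and basophils. They drive IgE production, eosinophilia, mucus secretion and alternative activation of macrophages. IL-4 is read through IL-4Rα paired either with the common γ chain (*Il2rg*) or with IL-13Rα1, and IL-13 is read through the latter pair. GATA3 directs the type 2 program of lymphocytes, and GATA2 is required for mast cells and basophils.

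*Il4*, *Il13* and *Il5* are neighbours on mouse chromosome 11 (mm10), with 12.7 kb between *Il4* and *Il13* and 86.1 kb between *Il13* and *Il5*. *Il4* spans chr11:53602982-53618669 on the minus strand, *Il13* spans chr11:53631324-53634702 on the minus strand, and *Il5* spans chr11:53720794-53725106 on the plus strand. Because GATA factors are among the 9 genes, the 250 bases before each start were searched on both strands for the GATA letters AGATAA with the variant AGATAG, and likewise for TGATAA with the variant TGATAG. The 120 bases before the start are shown for the cytokine genes and for *Il9r*, 5′ to 3′ on the strand of the gene, with matches in capitals (RefSeq, GRCm38.p6, which is mm10). *Il4* has an outer start at base 53618665 (shown bases chr11:53618666-53618785) and an inner start at base 53617338 (chr11:53617339-53617458). The other sequences lie at chr11:53634703-53634822 for *Il13*, chr11:53720674-53720793 for *Il5* and chr11:32200280-32200399 for *Il9r*.
Il4, outer start: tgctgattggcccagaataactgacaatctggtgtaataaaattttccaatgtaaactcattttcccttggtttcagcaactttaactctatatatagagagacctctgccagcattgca
Il4, inner start: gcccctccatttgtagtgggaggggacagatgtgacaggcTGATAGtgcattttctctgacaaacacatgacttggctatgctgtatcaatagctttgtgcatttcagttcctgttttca
Il13: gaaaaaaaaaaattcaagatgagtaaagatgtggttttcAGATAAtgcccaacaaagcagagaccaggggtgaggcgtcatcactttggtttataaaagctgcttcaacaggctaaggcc
Il5: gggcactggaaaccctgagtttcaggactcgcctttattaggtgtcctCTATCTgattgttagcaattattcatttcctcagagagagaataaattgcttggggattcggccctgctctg
Il9r: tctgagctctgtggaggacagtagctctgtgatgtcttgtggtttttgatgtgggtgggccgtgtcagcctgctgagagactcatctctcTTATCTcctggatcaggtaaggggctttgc

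A match was present for 4 of the 9 genes (*Il4*, *Il13*, *Il5* and *Il9r*), and for 29.8% of 26994 genes with a RefSeq start. *Il9r* had a further match that begins 223 bases before the start, outside the stretch shown. *Il4ra*, *Il13ra1*, *Il2rg*, *Gata3* and both starts of *Gata2* held none of these letters in the window.

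Each unique molecular identifier (UMI) stands for 1 captured transcript molecule, and the level of a gene in a cell type is its summed UMIs per 10000 summed UMIs of that cell type and library. Intervals in brackets are exact 95% intervals (Poisson for levels, conditional binomial for ratios, Clopper-Pearson for shares) and cover counting error only. With 1 library per genotype there is no test between genotypes, and genotype, library and mice cannot be told apart. The libraries held 20312 and 18571 cells with medians of 4787 and 7716 UMIs, Mir34a_Mye_KO was deeper in each of the 11 cell types, and 96 barcodes occurred in both. The primary transcript of *Mir34a* was not lower in the macrophages of the library labelled Mir34a_Mye_KO (0.139 per 10000, 0.127 to 0.152) than in those of the library labelled Mir34a_F/F (0.0683, 0.0572 to 0.0810). Whether the counted 3′ ends lie in the deleted part is not given in the sources used here, so this transcript could not serve as a check of the deletion, and each direction below rests on the labels as given. In the annotated mast cells, which numbered 732 and 785, all 10 mast cell markers of a list were detected at a summed level of 895 and 896 per 10000. The 9 basophil markers, which share *Cpa3* and *Ms4a2* with that list, summed to 49.7 and 64.1 in them. In Mir34a_F/F, 63 of these mast cells held 1160 UMIs of the basophil gene *Mcpt8*. Among the 48 and 40 annotated basophils, 9 of 9 basophil markers were detected (102 and 101.0 per 10000), but so were all 7 neutrophil markers (544 and 433) and 10 of 10 mast cell markers (109 and 429), as detailed below. The mast cell list also holds *Hdc*, which was higher in Mir34a_F/F basophils with low *S100a8* and *S100a9* (55.25 per 10000) than in its mast cells (5.98).

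The 9 genes fell into several patterns across the tumor. *Il4*, *Il13*, *Gata2* and *Il9r* were highest in mast cells and basophils, which together held 3.84% of the cells of Mir34a_F/F and 4.44% of those of Mir34a_Mye_KO. *Il5*, *Gata3* and *Il2rg* were highest in T cells, *Il4ra* in macrophages, and *Il13ra1* in fibroblasts and neutrophils. For *Il5*, basophils could not be ranked, since their lack of UMIs allows a level above that of T cells. Of the 8 members with at least 100 UMIs, 4 had mast cells and basophils as the 2 highest cell types in both libraries. Of all 18581 genes with that many UMIs, 1.11% did. *Il9r* counts among the 4 on 2 and 6 basophil UMIs only. These 2 cell types held 70.7% and 83.5% of all *Il4* UMIs of the Mir34a_F/F and Mir34a_Mye_KO library, 65.7% and 85.2% of all *Il13* UMIs, 63.8% and 76.8% of those of *Gata2*, and 40.9% and 48.4% of those of *Il9r*.

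**Figure D1:**
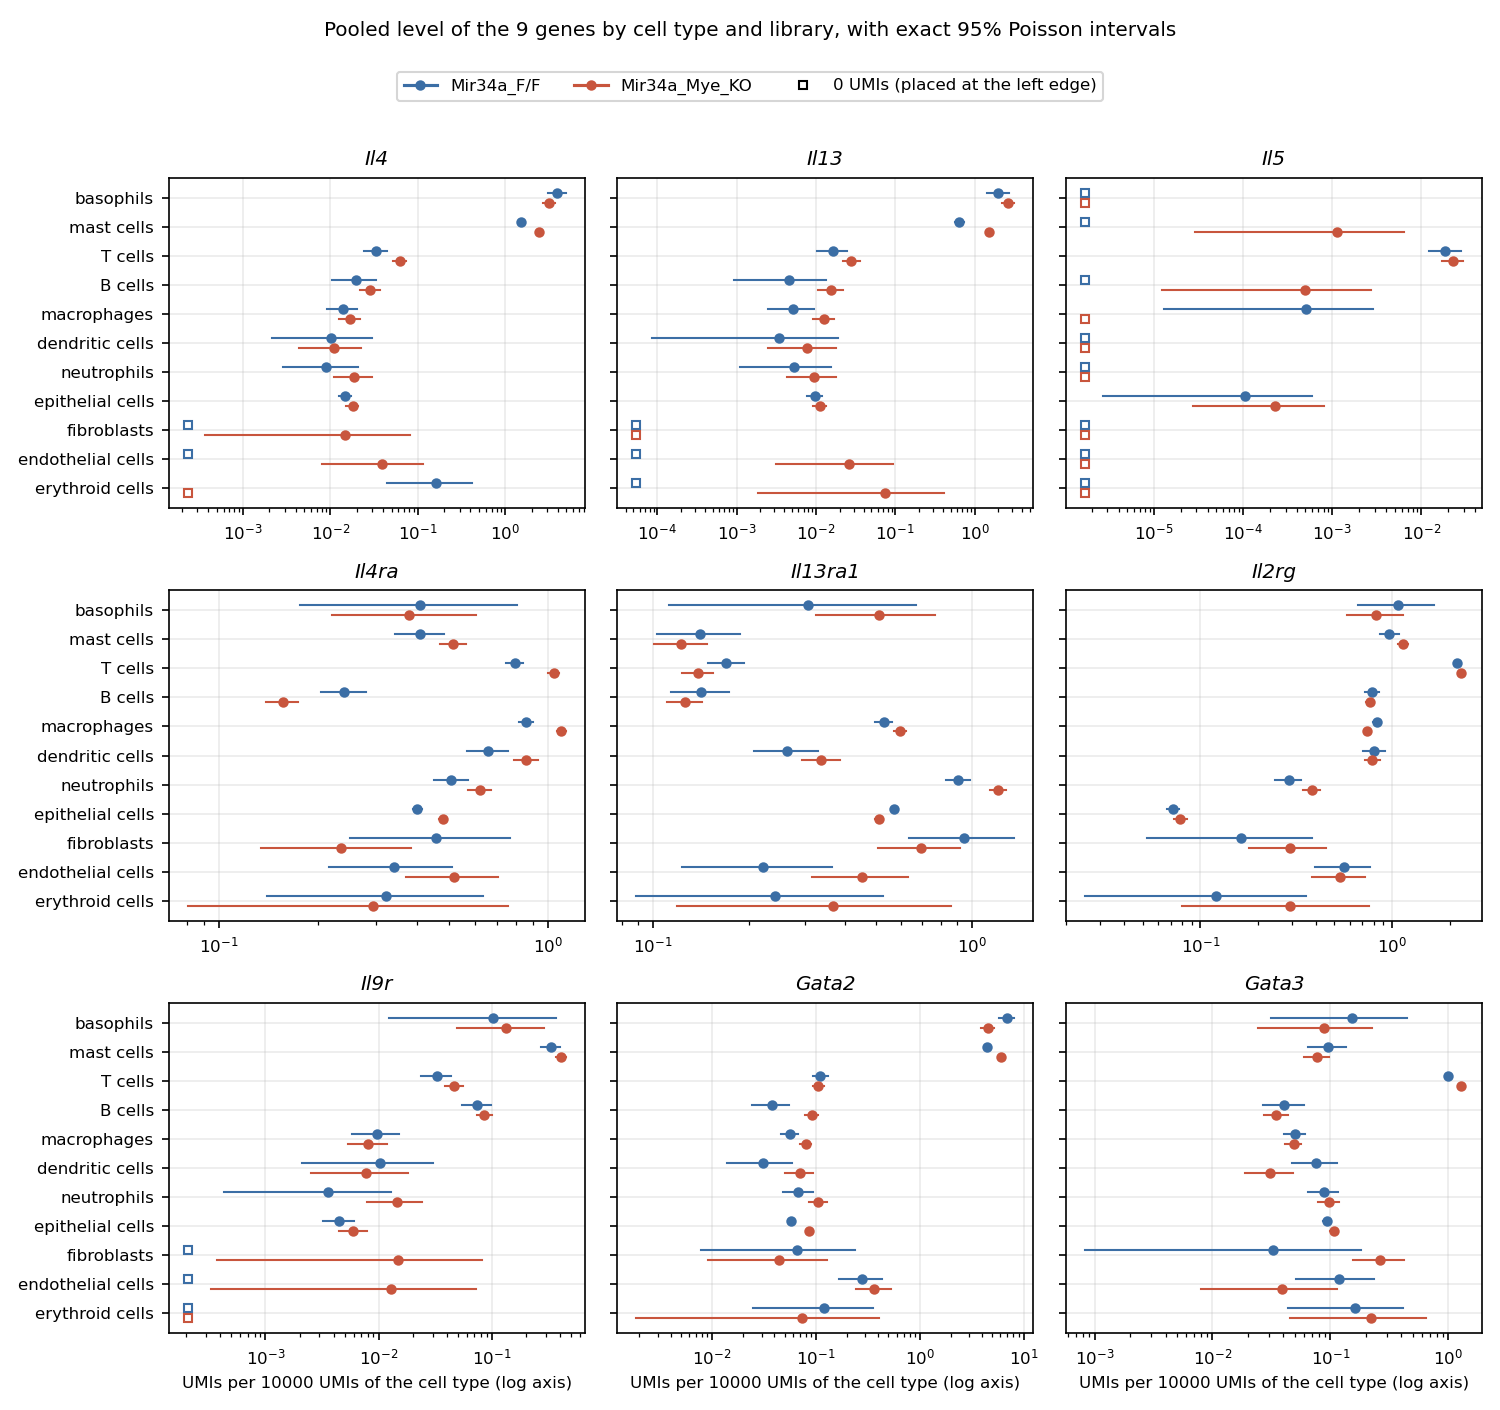
Level of each of the 9 genes (x axis, UMIs per 10000 UMIs of the cell type, log axis) in the 11 annotated cell types (y axis) of the Mir34a_F/F (blue) and Mir34a_Mye_KO (red) library, with exact 95% Poisson intervals and open squares for 0 UMIs. *Il4*, *Il13* and *Gata2* stand apart in basophils and mast cells and *Gata3* in T cells, whereas *Il4ra* was detected in all 11 cell types. The few *Il5* UMIs lie mostly in T cells.

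*Il4*, the cytokine of IgE switching and T helper 2 differentiation, was highest in basophils. Its level in basophils was 3.94 per 10000 (3.11 to 4.93, 77 UMIs) in Mir34a_F/F and 3.18 (2.68 to 3.75, 143 UMIs) in Mir34a_Mye_KO. In mast cells it was 1.51 (1.38 to 1.65, 492 UMIs) and 2.42 (2.31 to 2.52, 2123 UMIs). Basophils thus exceeded mast cells in both libraries, by a log2 ratio of 1.38 (1.02 to 1.73) and 0.40 (0.14 to 0.64). The difference in Mir34a_Mye_KO rested on few cells: without the 5 cells with the most *Il4* UMIs in each cell type, the log2 ratio was 0.71 in Mir34a_F/F and -0.81 in Mir34a_Mye_KO.

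*Il13*, which acts on epithelium, goblet cells and macrophages, had the same order. Its level in basophils was 2.00 per 10000 (1.42 to 2.73, 39 UMIs) in Mir34a_F/F and 2.67 (2.21 to 3.19, 120 UMIs) in Mir34a_Mye_KO. In mast cells it was 0.645 (0.560 to 0.738, 210 UMIs) and 1.54 (1.46 to 1.63, 1356 UMIs). The log2 ratio of basophils over mast cells was 1.63 (1.10 to 2.13) and 0.79 (0.51 to 1.06), and became 0.50 and -0.11 without the 5 highest cells of each type.

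Between the libraries, both cytokines were higher in the mast cells of Mir34a_Mye_KO, by a log2 ratio of 0.68 (0.54 to 0.82) for *Il4* and 1.26 (1.05 to 1.48) for *Il13*. Mast cells of this library were also deeper, with a median of 8456 against 2951.5 UMIs. When each cell was thinned to 1000 UMIs, with 46 and 2 shallower mast cells left out, the log2 ratios were 0.37 and 1.04. The part of depth in the remaining difference was not tested. In basophils the intervals of both ratios included 0, at -0.31 (-0.72 to 0.11) for *Il4* and 0.42 (-0.11 to 0.98) for *Il13*.

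The transcripts were unevenly spread over single cells. At least 1 *Il4* UMI was found in 244 of 732 mast cells of Mir34a_F/F (33.3%, 29.9 to 36.9) and in 456 of 785 of Mir34a_Mye_KO (58.1%, 54.6 to 61.6), and in 25 of 48 and 24 of 40 basophils (52.1% and 60.0%). In epithelial cells, which are not known to make *Il4*, the share was 1.02% and 1.54% at median depths of 5315.5 and 6623 UMIs, against 2951.5 and 8456 in mast cells and 3673 and 9302.5 in basophils. At 1000 UMIs per cell, the share of mast cells with *Il4* was 13.7% in Mir34a_F/F and 12.6% in Mir34a_Mye_KO, that of basophils was 29.2% and 20%, and that of epithelial cells was 0.209% and 0.309%. The higher level of *Il4* in the mast cells of Mir34a_Mye_KO thus did not go with a larger share of positive cells once depth was equal. For *Il13*, 12.8% and 33.3% of mast cells were positive, and 5.39% and 9.07% at 1000 UMIs. In basophils the *Il13* share was 35.4% and 45.0%, and 16.7% and 30.0% at 1000 UMIs, against 0.439% and 0.872% of epithelial cells before thinning.

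Most positive mast cells held few molecules. Of the *Il4*-positive mast cells, 135 of 244 and 172 of 456 held a single UMI, whereas the highest cell held 27 UMIs in Mir34a_F/F and 113 in Mir34a_Mye_KO. Mast cells with at least 10 *Il4* UMIs numbered 3 and 37, and those with at least 10 *Il13* UMIs numbered 2 and 40. These are raw counts per cell, and mast cells of Mir34a_Mye_KO were deeper (median of 8456 against 2951.5 UMIs). The part of depth in these numbers was not tested. In basophils, the 5 highest cells held 50.6% and 67.8% of the *Il4* UMIs and 69.2% and 60.8% of the *Il13* UMIs.

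*Il4* and *Il13* were found in the same cells in part. Of *Il4*-positive mast cells, 21.7% also held *Il13* in Mir34a_F/F (53 of 244) and 43.9% in Mir34a_Mye_KO (200 of 456), against 8.40% and 18.5% of the mast cells without *Il4*. The *Il4*-positive mast cells were deeper than the others (medians of 4820 against 2403 UMIs, and 11444.5 against 5447), and the part of depth in this overlap was not tested. Basophils with and without *Il4* were closer in depth, with medians of 3699 and 3527 UMIs in Mir34a_F/F and 9408.5 and 7312 in Mir34a_Mye_KO. Of basophils with *Il4*, 13 of 25 and 14 of 24 also held *Il13*, against 17.4% and 25% of those without *Il4*.

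**Figure D2:**
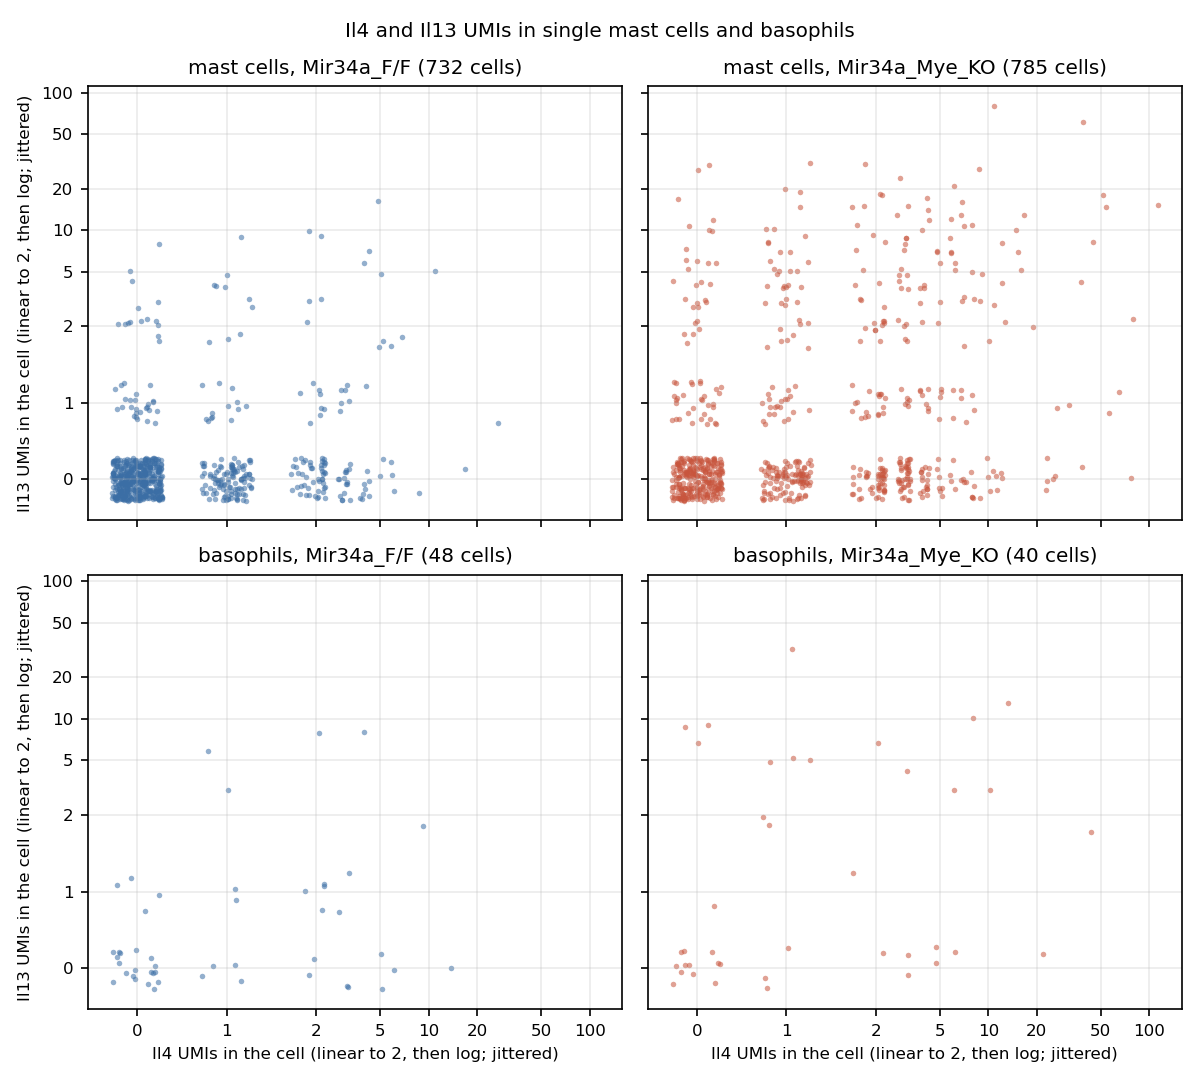
UMIs of *Il4* (x axis) and *Il13* (y axis) in single mast cells (top) and basophils (bottom) of each library, 1 point per cell, on axes that are linear up to 2 and logarithmic above, with random jitter. Cells with both transcripts, with only 1 and with neither occur in all 4 panels, and cells with 10 or more UMIs of *Il4* or *Il13* lie mostly in the Mir34a_Mye_KO mast cells, which were also deeper.

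The annotated basophils fell into 2 ranges of *S100a8* and *S100a9*, the neutrophil calprotectin genes, and the cytokines followed this split. The summed level of both genes was at most 43.2 per 10000 in 34 of 48 basophils of Mir34a_F/F and at least 330 in the other 14. In Mir34a_Mye_KO it was at most 10.9 in 22 of 40 and at least 199 in 18. A line at 100 per 10000, drawn after these values were seen, separates them, with 0 and 1 cells within 2-fold of it. Cells below the line held the basophil proteases *Mcpt8* (27.0 and 24.4 per 10000) and *Prss34* (6.19 and 8.22) and the chemokine *Ccl3* (97.8 and 156). Cells above it held next to no *Mcpt8* (0 and 1.09) but did hold the neutrophil gene *Retnlg* (78.8 and 59.0) and the mast cell genes *Mcpt1* (91.7 and 310) and *Cpa3* (15.9 and 17.9).

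Below the line, *Il4* stood at 5.05 per 10000 in Mir34a_F/F (62 UMIs in 21 cells) and 7.19 in Mir34a_Mye_KO (126 UMIs in 16 cells). Above it, *Il4* stood at 2.07 (15 UMIs) and 0.62 (17 UMIs). *Il13* was at 3.18 and 5.42 below the line, and above it at 0 UMIs in Mir34a_F/F and 0.911 in Mir34a_Mye_KO. With only the cells below the line, the log2 ratio of basophils over mast cells rose to 1.74 (1.34 to 2.13) and 1.57 (1.30 to 1.83) for *Il4*, and to 2.30 (1.77 to 2.80) and 1.81 (1.5 to 2.11) for *Il13*. The comparison of the libraries changed with it. Below the line the log2 ratio of Mir34a_Mye_KO over Mir34a_F/F was 0.51 (0.059 to 0.97) for *Il4* and 0.77 (0.22 to 1.35) for *Il13*. Both intervals excluded 0, in contrast to those over all annotated basophils, and the sign changed for *Il4* only. In Mir34a_Mye_KO, the highest cell below the line held 44 of the 126 *Il4* UMIs, and the highest for *Il13* held 32 of 95. Ratios without these cells were not computed. The median over cells below the line was 3.013 and 2.475 per 10000 for *Il4*, and 0.646 and 3.26 for *Il13*. The receptor *Il13ra1* was split the other way, at 0 and 0.057 per 10000 below the line and 0.828 and 0.801 above it, the latter close to the 0.906 and 1.21 of annotated neutrophils.

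**Figure D3:**
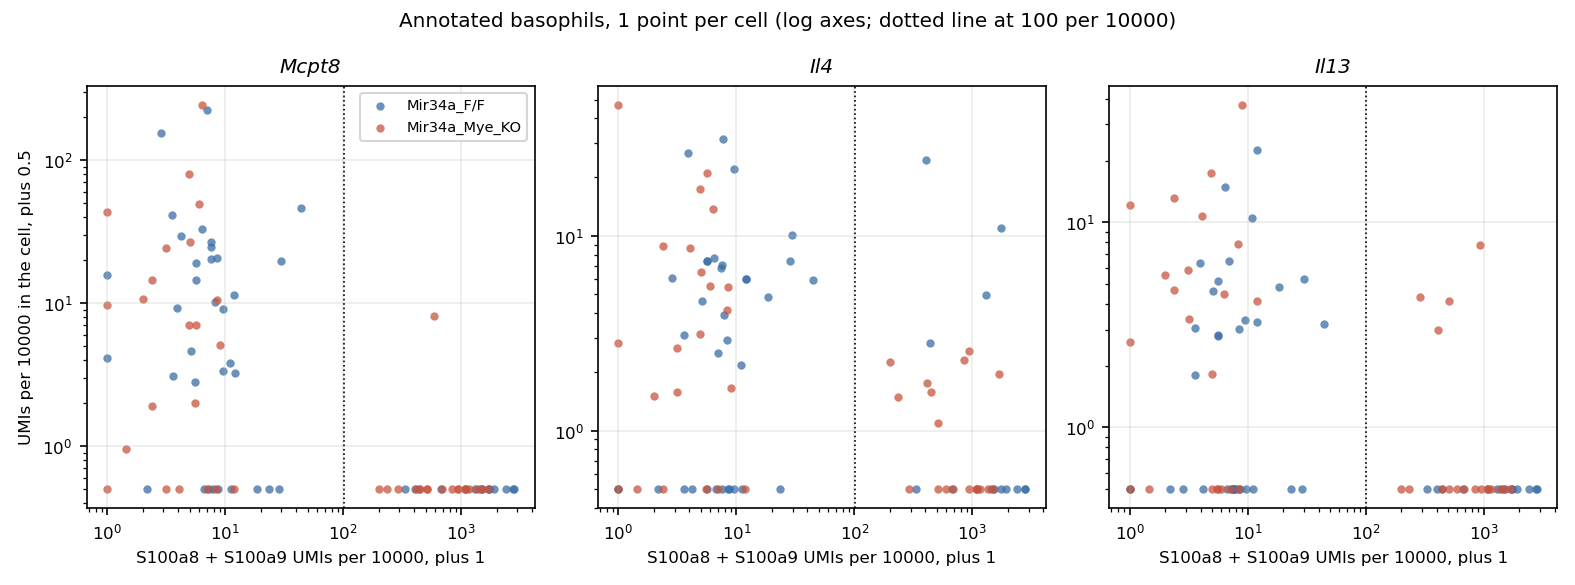
Annotated basophils, 1 point per cell, by the summed level of *S100a8* and *S100a9* (x axis, UMIs per 10000 plus 1) and the level of *Mcpt8*, *Il4* or *Il13* (y axis, UMIs per 10000 in the cell plus 0.5), on log axes, Mir34a_F/F in blue and Mir34a_Mye_KO in red. The dotted line at 100 parts the 34 and 22 cells that hold nearly all *Mcpt8* of the annotated basophils from the 14 and 18 cells with high *S100a8* and *S100a9*.

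Within mast cells, the cytokines varied with the mucosal proteases *Mcpt1* and *Mcpt2*. In the 229 and 192 mast cells with at most 50 UMIs per 10000 of these proteases, *Il4* was at 0.917 (0.691 to 1.19) and 1.58 (1.35 to 1.84). In those over 500, which numbered 265 and 315, it was at 1.54 (1.36 to 1.72) and 2.57 (2.44 to 2.72), and in the class between at 1.90 (1.61 to 2.23) and 2.44 (2.25 to 2.63). *Il13* went over the same 3 classes from 0.050 (3 UMIs) through 0.667 to 0.827 in Mir34a_F/F, and from 1.20 through 1.22 to 1.77 in Mir34a_Mye_KO. Cells of the low class were shallower (medians of 1758 and 3604.5 UMIs, against 5772 and 14009). *Epcam*, an epithelial marker, went over the 3 classes from 7.61 through 5.27 to 2.33 per 10000 in Mir34a_F/F and from 4.36 through 4.27 to 1.49 in Mir34a_Mye_KO. *Mcpt8* went from 6.55 through 0.050 to 4.10, and from 1.6 through 0.966 to 1.08. The part of depth, of epithelial RNA and of basophil RNA in these differences was not tested.

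Outside mast cells and basophils, *Il4* and *Il13* were low. T cells held *Il4* at 0.0336 and 0.0617 per 10000 (45 and 148 UMIs) and *Il13* at 0.0164 and 0.0279 (22 and 67 UMIs), and epithelial cells held *Il4* at 0.0147 and 0.0179. Both cytokines were higher in the T cells of Mir34a_Mye_KO (log2 0.88, 0.39 to 1.39, and 0.77, 0.05 to 1.53). The mast cell gene *Cpa3* was also higher there, at 0.238 and 0.367 per 10000, and the part of this in the difference was not tested. A single T cell of Mir34a_Mye_KO held 18 of its 67 *Il13* UMIs and no *Cpa3*, and without it the log2 ratio of *Il13* was 0.32 (-0.43 to 1.11), a choice made after seeing the data. For each 100 UMIs of *Cpa3*, there were 14.1 and 16.8 *Il4* UMIs in T cells, 10.2 and 7.79 in epithelial cells, 5.16 and 6.11 in mast cells, and 49.4 and 26.1 in basophils. For *Il13* there were 6.90 and 7.61 in T cells. Of the *Il4*-positive T cells, 22 of 28 and 53 of 75 held *Cd3e*, against 62.2% and 69.9% of T cells without *Il4*, and 24 of 28 and 58 of 75 held any of *Cd3d*, *Cd3e* and *Cd3g*, against 75.6% and 79.2%. *Gata3* was held by 11 of 28 and 41 of 75, against 23.4% and 38.5%. Mast cell genes were found in a larger share of them as well: 7 of 28 and 18 of 75 held *Cpa3*, against 7.35% and 15.9%, and 4 of 28 and 16 of 75 held *Gata2*, against 3.11% and 6.53%. The *Il4*-positive T cells were deeper than the others, with medians of 5034.5 against 3539 and 8950 against 8000.5 UMIs, and the part of depth in these shares was not tested. *Il17rb*, the receptor for IL-25, was found in 4 of 28 and 13 of 75 of them, against 0.784% and 2.10% of the others. A single T cell held *Il4* and *Il13* together in Mir34a_F/F, and 5 did so in Mir34a_Mye_KO. In B cells of Mir34a_Mye_KO, 2 cells held 36 of the 58 *Il4* UMIs, with a median of 32.5 *Cpa3* UMIs.

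*Il5*, the cytokine of eosinophil production, was rare, and most of its UMIs lay in annotated T cells. Only 85 UMIs were counted in all, of which annotated T cells held 25 in 7 cells of Mir34a_F/F and 54 in 9 cells of Mir34a_Mye_KO. The 5 highest cells held 92.0% and 92.6% of these, with up to 12 and 27 UMIs in a cell. No *Il5* UMI was found in 732 mast cells of Mir34a_F/F, which allows a level of up to 0.00921 per 10000, and 1 was found in 785 of Mir34a_Mye_KO. Basophils had none in either library, which allows up to 0.154 and 0.0667 per 10000. That is above the level in T cells, at 0.0186 and 0.0225, so basophils could not be ranked against T cells.

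The cells with the most *Il5* held few or no CD3 transcripts. The 5 cells with at least 7 *Il5* UMIs, 2 in Mir34a_F/F and 3 in Mir34a_Mye_KO, held 1 UMI of *Cd3d* and none of *Cd3e*, *Cd3g* or *Cd4* between them. All 5 held *Gata3* (4 to 29 UMIs) and *Rora* (17 to 63 UMIs), and 4 of the 5 held *Il1rl1*, which encodes the IL-33 receptor ST2 (3 to 15 UMIs). *Klrg1*, also read in these cells, was at 2 UMIs in 1 cell of each library and at 0 in the others. Among T cells without *Il5*, *Gata3* was found in 23.4% and 38.79%, and *Rora* in 79.42% and 90.42%. *Il1rl1* was found in 14.87% and 24.32% of them, and *Klrg1* in 9.997% and 15.57%. *Rora* was thus common in the other T cells as well. The part of depth in these shares was not tested. Transcripts of T cell receptor constant regions did occur: of the 3 and 5 T cells with at least 2 *Il5* UMIs, 3 and 2 held *Trbc2*, and 0 and 2 held *Trac*. *Il13* was at 0 in the 5 cells with at least 7 *Il5* UMIs and *Il4* at 1 UMI in 1 of them, at depths of 4268 to 11632 UMIs.

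Among the receptors, *Il4ra*, the chain shared by both IL-4 receptors, was detected in all 11 cell types. It was highest in macrophages, at 0.858 per 10000 (0.817 to 0.900) in Mir34a_F/F and 1.10 (1.06 to 1.13) in Mir34a_Mye_KO, followed by T cells (0.792 and 1.04) and dendritic cells (0.658 and 0.860). These 3 cell types were each apart from the next in both libraries by counting error. For macrophages over T cells this was narrow, at log2 0.115 (0.003 to 0.227) and 0.076 (0.002 to 0.150). Neutrophils (0.508 and 0.622), mast cells (0.408 and 0.515), basophils (0.410 and 0.378) and epithelial cells (0.401 and 0.480) followed, and basophils and mast cells did not differ beyond counting error (log2 0.01, -1.24 to 1.03, and -0.45, -1.24 to 0.25). With only the basophils below the *S100a8* and *S100a9* line, on 4 and 2 UMIs, the log2 ratio was -0.33 (-2.22 to 1.06) and -2.18 (-5.22 to -0.31), so that *Il4ra* was lower than in mast cells in Mir34a_Mye_KO. B cells were lowest, at 0.240 and 0.156. They did not differ beyond counting error from the next cell type, erythroid cells in Mir34a_F/F and fibroblasts in Mir34a_Mye_KO.

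*Il4ra* was higher in Mir34a_Mye_KO in macrophages (log2 0.36, 0.27 to 0.44), T cells (0.39, 0.29 to 0.50), dendritic cells (0.39, 0.15 to 0.63) and neutrophils (0.29, 0.08 to 0.50). In macrophages the log2 ratio was 0.13 as a mean over cells and 0.12 after thinning. In epithelial cells it was 0.26 (0.20 to 0.32), but -0.13 as a mean over cells and -0.11 after thinning, so its direction depended on how cells were weighted. In mast cells it was 0.34 (0.05 to 0.63), and -0.068 after thinning.

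Within cell types, *Il4ra* was read in cells with and without a UMI of subset markers. Depth differed with it, with medians of 7804.5 against 4256.5 UMIs for *Krt20* in Mir34a_F/F and 11021 against 4861 in Mir34a_Mye_KO. For *Lgr5* they were 10858.5 against 4698 and 9168 against 6031, and for *Mrc1* 10915 against 5854 and 18462 against 6139.5. The part of depth in these and later splits by marker was not tested. Epithelial cells with the differentiation marker *Krt20* held more than those without it, at 0.537 against 0.298 per 10000 in Mir34a_F/F (log2 0.85, 0.76 to 0.94) and 0.619 against 0.348 in Mir34a_Mye_KO (0.83, 0.74 to 0.92). Those with the stem cell gene *Lgr5* held less than those without it, at 0.225 against 0.470 and 0.346 against 0.519. Macrophages with *Mrc1* over those without it gave log2 0.04 (-0.10 to 0.18) in Mir34a_F/F. In Mir34a_Mye_KO they held slightly more (0.13, 0.031 to 0.23). For *Arg1* the intervals included 0 (-0.06, -0.20 to 0.08, and -0.01, -0.11 to 0.09). Macrophages with *Ly6c2*, a marker of recent monocyte origin, held more than those without it, at 0.976 against 0.830 and 1.20 against 1.07 (log2 0.24, 0.064 to 0.40, and 0.17, 0.062 to 0.28). T cells with *Trdc*, which marks the γδ lineage, held 1.10 and 1.36 per 10000 against 0.764 and 1.01 in the others.

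B cells were the exception in the comparison of the libraries, since *Il4ra* was lower in Mir34a_Mye_KO (log2 -0.62, -0.90 to -0.34). When immunoglobulin, mitochondrial, hemoglobin and ribosomal RNA-like genes were left out of the total, the log2 ratio was -0.33, and as a mean over cells it was -0.17. Annotated B cells of Mir34a_Mye_KO had a median depth of 20852 against 3664 UMIs, and 908 of 926 held *Jchain*, against 553 of 943. In B cells with *Ms4a1*, which encodes CD20, *Il4ra* stood at 0.389 per 10000 (52 UMIs) and 0.472 (176 UMIs). In B cells with *Fcer2a*, the IgE receptor CD23 that IL-4 is known to induce, it stood at 0.654 in both libraries, against 0.205 and 0.104 in the others.

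*Il13ra1* and *Il2rg*, the alternative partners of IL-4Rα, divided the cell types between them. *Il13ra1* was highest in fibroblasts (0.947 and 0.691 per 10000, 29 and 47 UMIs) and neutrophils (0.906 and 1.21), which did not differ beyond counting error in Mir34a_F/F, and stood at 0.572 and 0.512 in epithelial cells and 0.529 and 0.596 in macrophages. T cells (0.170 and 0.138), B cells (0.142 and 0.126) and mast cells (0.141 and 0.123) were lowest, and neighbours in this order did not differ beyond counting error. *Il2rg*, the chain shared with the receptors of IL-2, IL-7, IL-9, IL-15 and IL-21, was highest in T cells (2.18 and 2.28), followed by basophils (1.08 and 0.823) and mast cells (0.967 and 1.14), and lowest in epithelial cells (0.0720 and 0.0787). Basophils and mast cells did not differ beyond counting error in *Il2rg* (log2 0.15, -0.56 to 0.79, and -0.47, -0.98 to 0.01).

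The log2 ratio of *Il2rg* UMIs over *Il13ra1* UMIs, compared only between cell types, was 3.68 and 4.04 in T cells and 2.78 and 3.21 in mast cells. It was 0.66 and 0.31 in macrophages, -1.65 and -1.66 in neutrophils, and -2.99 and -2.70 in epithelial cells. Lymphocytes and mast cells thus lay at one end, epithelial cells, fibroblasts and neutrophils at the other, and macrophages between, in both libraries. *Il4ra* and *Il13ra1* were found together in 9.0% and 10.6% of epithelial cells and 17.9% and 30.2% of macrophages, whereas *Il4ra* and *Il2rg* were found together in 15.1% and 40.0% of T cells and 22% and 32.4% of macrophages. These shares rise with depth, which was larger in Mir34a_Mye_KO.

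**Figure D4:**
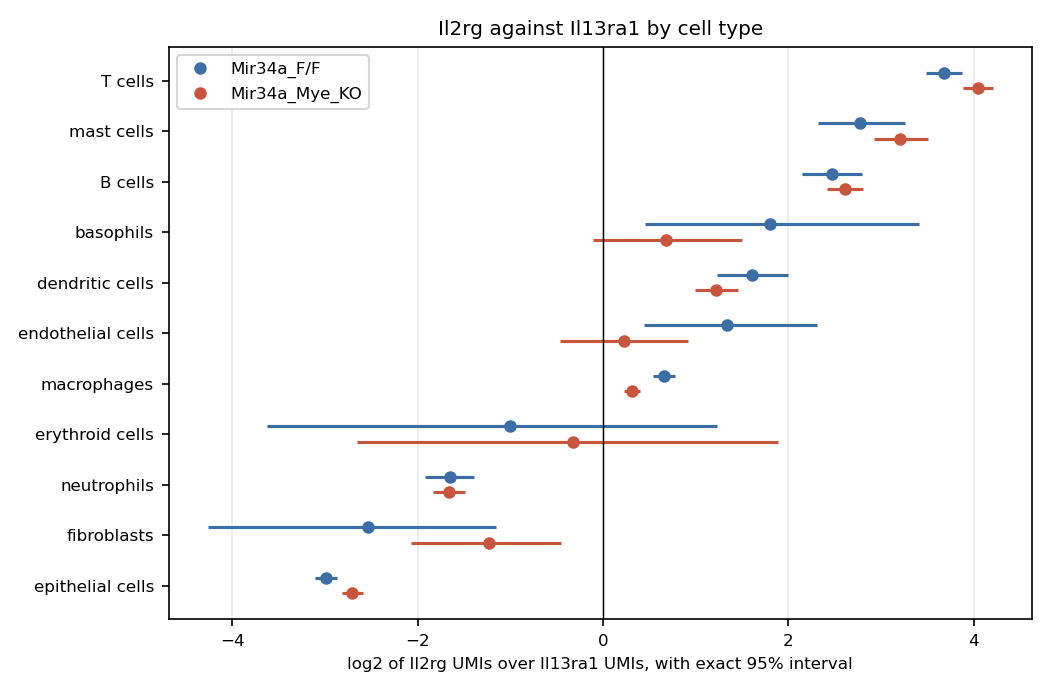
Log2 ratio of *Il2rg* UMIs over *Il13ra1* UMIs (x axis) in each annotated cell type (y axis), with exact 95% intervals, Mir34a_F/F in blue and Mir34a_Mye_KO in red. T cells, mast cells and B cells lie right of 2 and epithelial cells left of -2 in both libraries, and macrophages lie near 0.

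Between the libraries, *Il13ra1* was higher in neutrophils of Mir34a_Mye_KO (log2 0.42, 0.26 to 0.57). It was lower in epithelial cells (-0.16, -0.21 to -0.10), where it turned to 0.16 when the gene classes named above were left out of the total, and higher in macrophages (0.17, 0.06 to 0.28), where it turned to -0.12 after thinning. *Il13ra1* was also higher in *Krt20*-positive than in other epithelial cells, by log2 0.66 and 0.65. *Il2rg* differed by log2 0.07 (0.00 to 0.13) in T cells, 0.23 (0.05 to 0.42) in mast cells, -0.17 (-0.27 to -0.08) in macrophages and 0.40 (0.13 to 0.68) in neutrophils. T cells with *Foxp3*, which marks regulatory T cells, held more *Il2rg* than the others, at 2.91 against 2.03 and 3.02 against 2.06 per 10000.

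*Il9r*, the receptor for the mast cell growth factor IL-9, was highest in mast cells, at 0.332 per 10000 (0.272 to 0.400, 108 UMIs) in Mir34a_F/F and 0.407 (0.366 to 0.452, 358 UMIs) in Mir34a_Mye_KO. Basophils (0.102 and 0.133) rested on 2 and 6 UMIs and differed from mast cells beyond counting error in Mir34a_Mye_KO only. Of these, 2 of 2 and 5 of 6 lay in cells above the *S100a8* and *S100a9* line. Below it, *Il9r* was at 0 and 0.057 per 10000. The intervals of 0 to 0.301 and 0.0014 to 0.318 include its level in B cells. B cells came next, at 0.0740 and 0.0859, which did not differ from basophils beyond counting error, and those with *Fcer2a* reached 0.250 (13 UMIs) and 0.317 (61 UMIs) against 0.0590 and 0.0618 in the others. T cells held 0.0328 and 0.0467, and epithelial cells 0.00445 and 0.00598. The log2 ratios of the libraries had intervals that included 0 in mast cells (0.30, -0.02 to 0.62) and T cells (0.51, -0.01 to 1.05).

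*Gata2* was detected in most mast cells and basophils. It stood at 6.92 per 10000 (5.80 to 8.19, 135 UMIs) in basophils and 4.47 (4.25 to 4.71, 1457 UMIs) in mast cells of Mir34a_F/F. In Mir34a_Mye_KO the order was turned, with 4.51 (3.91 to 5.18, 203 UMIs) in basophils and 6.00 (5.84 to 6.17, 5277 UMIs) in mast cells. Basophils over mast cells gave a log2 ratio of 0.63 (0.36 to 0.88) and -0.41 (-0.62 to -0.21), and 1.0 (0.71 to 1.28) and -0.04 (-0.34 to 0.24) with the cells below the *S100a8* and *S100a9* line only. Between the libraries, *Gata2* thus was higher in the mast cells of Mir34a_Mye_KO (log2 0.42, 0.34 to 0.51) and lower in its basophils (-0.62, -0.94 to -0.29). Endothelial cells, which are known to make *Gata2*, held 0.281 and 0.363, and all other cell types up to 0.121. *Gata2* was found in 60.4% and 81.3% of mast cells and 75% and 82.5% of basophils, against 4.03% and 6.54% of epithelial cells, and in 34.1% and 38.8% of mast cells at 1000 UMIs. Of *Il4*-positive mast cells, 73.8% and 92.5% held *Gata2*, against 53.7% and 65.6% of the shallower *Il4*-negative ones.

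*Gata3* was at most 0.265 per 10000 in all cell types other than T cells, where it stood at 0.991 (0.939 to 1.05) in Mir34a_F/F and 1.29 (1.25 to 1.34) in Mir34a_Mye_KO, a log2 ratio of 0.38 (0.29 to 0.48). Mast cells held 0.0952 and 0.0774, close to the 0.0930 and 0.107 of epithelial cells, where *Gata3* was higher in the *Krt20*-positive cells (log2 0.89 and 1.07). Among T cells, those with *Foxp3* held 1.90 and 2.39 per 10000 against 0.805 and 0.964 in the others (log2 1.24, 1.07 to 1.41, and 1.31, 1.21 to 1.41). T cells with *Il17a* held less than those without, at 0.577 against 1.17 and 0.665 against 1.63, and those with *Cd8a* and with *Trdc* held less as well (log2 between -1.61 and -1.17). Cells with *Foxp3* made up 465 of 3088 and 598 of 2649 annotated T cells.

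The differences between the libraries were set against those of all genes in 4 cell types. In mast cells, 1 of 8 members with at least 20 UMIs (*Il13*) was at least 2-fold higher in Mir34a_Mye_KO, as were 1.66% of 12980 genes, and none was 2-fold lower, as were 5.83%. In basophils 0 of 6 members passed 2-fold in either direction, against 8.34% of 3863 genes higher and 7.04% lower. In T cells it was 0 of 9, against 1.11% and 4.99% of 16361 genes. In macrophages 1 of 8 was higher, *Il13*, on 10 and 42 UMIs at 0.00514 and 0.0126 per 10000, below its level in T cells, against 1.74% and 4.6% of 16710 genes. *Cpa3* in macrophages was at 0.142 and 0.240 per 10000, and 1 macrophage of Mir34a_Mye_KO with 60 *Cpa3* UMIs held 9 of the 42 *Il13* UMIs. Without that cell the difference was 1.94-fold (log2 0.95, -0.10 to 2.14) and no longer past 2-fold. The median log2 ratio of the members was 0.32 in mast cells, -0.21 in basophils, 0.38 in T cells and 0.21 in macrophages, and that of all genes tested there was -0.11, -0.03, -0.14 and -0.13. For the other gene lists described below, medians in T cells ran from -0.16 (induced by IL-4 or IL-13) to 0.34 (regulators of mast cells and basophils). Type 1 and type 17 genes, listed for contrast, had 0.31 there. In mast cells the medians ran from -0.24 (type 1 and type 17 genes) to 0.34 (other type 2 cytokines and receptors). In the other cell types, members past 2-fold with an interval that excludes 0 rested mostly on few UMIs. *Gata2* was higher in B cells (log2 1.28, 0.67 to 1.94, on 25 and 186 UMIs) and dendritic cells (1.18, 0.13 to 2.40, on 9 and 45 UMIs) of Mir34a_Mye_KO, and *Il13* in B cells (1.80, 0.12 to 4.15, on 3 and 32 UMIs). *Cpa3* moved with them, at 0.122 and 0.246 per 10000 in B cells and 0.0994 and 0.256 in dendritic cells, and its part was not tested. *Il13ra1* was higher in endothelial cells (1.03, 0.12 to 2.01, on 15 and 35 UMIs), and *Gata3* was higher in fibroblasts (3.02, 0.36 to 8.40, on 1 and 18 UMIs) and lower in dendritic cells (-1.28, -2.23 to -0.34, on 22 and 20 UMIs).

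**Figure D5:**
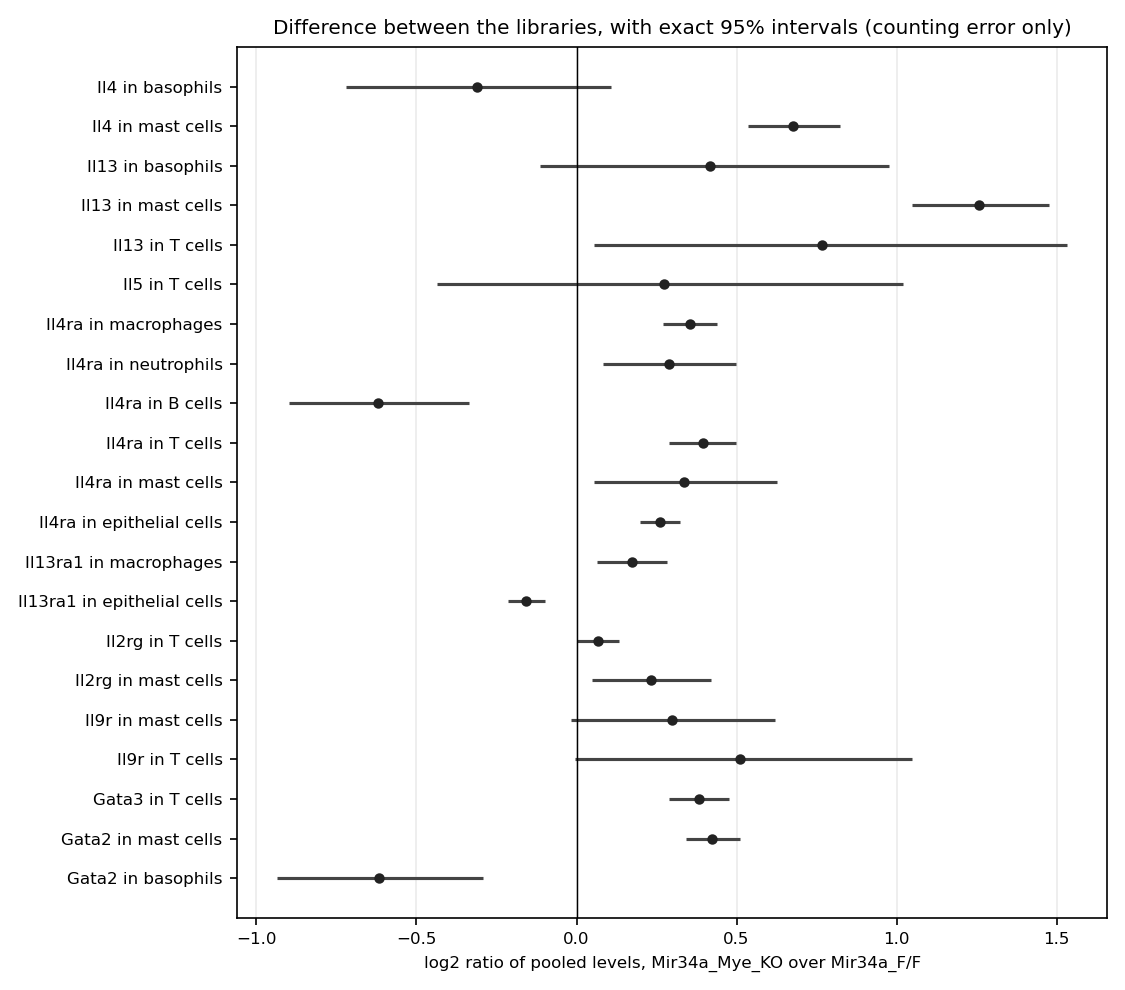
Log2 ratio of the pooled level in Mir34a_Mye_KO over that in Mir34a_F/F (x axis) for the genes and cell types named on the y axis, with exact 95% intervals that cover counting error only. *Il13* in mast cells lies farthest from 0, at 1.26, and *Il4ra* in B cells and *Gata2* in basophils lie below 0, at -0.62 and -0.62.

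The genes whose levels ran most like those of a member over the 22 combinations of cell type and library were named by Pearson's r of log2 levels, which describes 22 values that share 2 libraries. For *Il4* these were *Cd200r3* (0.977), an activating receptor of mast cells and basophils, *Rtn4r* (0.968) and *Cyp11a1* (0.967), which encodes an enzyme of steroid synthesis. For *Il13* they were *Cd200r3* (0.992), *Slc18a2* (0.977), the vesicular monoamine transporter, and *Rtn4r* (0.973). *Gata2* again had *Cd200r3* (0.965) and *Slc18a2* (0.961), with *Car8* (0.957), whereas *Il9r* had *Arpp21* (0.904), *Mcpt9* (0.903) and *Tpsg1* (0.902). *Il4*, *Il13* and *Gata2* thus shared their nearest gene at this pseudocount of 0.05, whereas with 0.5 *Gata2* had *Slc18a2*, *Cyp11a1* and *Rtn4r*. *Mcpt9* and *Tpsg1*, named for *Il9r*, encode mast cell proteases. *Gata3* ran most like *Trbc1* (0.937), *Olfr60* (0.906) and *Bcl11b* (0.905). *Il2rg* ran most like *Dock8* (0.895), *Dennd4a* (0.883) and *Itgb7* (0.880), *Il4ra* like *Ppm1h* (0.916), *Id2* (0.867) and *Actr2* (0.837), and *Il13ra1* like *Lamp2* (0.941), *App* (0.863) and *Gda* (0.854). *Il5*, with under 100 UMIs, ran like *Cdh10* (0.994), *Lcn4* (0.993) and *Gm28960* (0.991), which rests on its few T cell UMIs.

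Other genes of the pathway are named here for the 3 highest levels of each list in either mast cells or basophils, as a mean of both libraries. For the 8 alarmins and their receptors these were *Il1rl1*, the IL-33 receptor, at 6.35 and 7.73 per 10000 in mast cells and 3.02 and 3.25 in basophils, *Il1rap* (0.424 and 0.368, 1.49 and 2.09) and *Il7r* (0.264 and 0.179, 1.38 and 0.578). Of 12 other type 2 cytokines and receptors, *Csf2rb*, the β chain for IL-3, IL-5 and GM-CSF, stood at 3.18 and 3.85 in mast cells and 6.40 and 7.49 in basophils, next to *Csf2rb2* and to *Areg*, which was at 0.688 and 0.622 in mast cells and 6.35 and 4.02 in basophils. The 13 signal transducers gave *Jak2* (1.55 and 1.90, 5.74 and 6.69), *Jak1* (2.58 and 3.53, 2.31 and 3.96) and *Cish* (0.900 and 1.34, 0.564 and 0.911). The 12 regulators of mast cells and basophils gave *Fcer1g*, *Runx1* and *Fcer1a*, the IgE receptor α chain, which was at 7.51 and 9.88 in mast cells and 2.46 and 4.49 in basophils. The 13 type 2 lymphocyte regulators gave *Hpgds*, *Nfil3* and *Rora*, and *Hpgds*, the prostaglandin D synthase, stood at 2.38 and 2.62 in mast cells and 0.973 and 1.25 in basophils.

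Of the genes of these lists past 2-fold between the libraries, those higher in mast cells of Mir34a_Mye_KO included *Il3*, with 32 UMIs against 0 (at least 3.95-fold higher, against a floor of 3 counts in the Mir34a_F/F mast cells), and *Irf4* (log2 1.55, 0.60 to 2.67), a transcription factor of type 2 cytokine induction that B and plasma cells also use. In the same mast cells the B cell markers summed to 10.1 and 45.1 per 10000, and their part in this was not tested. *Itga2* was lower (-1.08, -1.57 to -0.60), also in basophils (-1.13, -2.14 to -0.11), where *Il7r* was lower too (-1.26, -2.09 to -0.43). *Stat5b* in basophils was lower on 14 and 15 UMIs (-1.11, -2.26 to 0.06), and *Irs2*, an adaptor of the IL-4 receptor, was higher on 1 and 22 UMIs (3.25, 0.63 to 8.62). In the same basophils, 14 of 48 and 18 of 40 cells lay above the *S100a8* and *S100a9* line and the mast cell markers summed to 109 and 429 per 10000, and the part of this in these differences was not tested. In T cells, *Il5ra* was higher on 9 and 42 UMIs, and *Cd200r3* (24 and 91 UMIs), *Tal1* (6 and 25 UMIs) and *Cd209a* (4 and 16 UMIs) were higher as well, the intervals of the latter pair including 0. Markers of other cell types were higher in the same T cells, with those of mast cells summing to 6.70 and 8.82 per 10000 and those of B cells to 13.0 and 26.7, and their part in this was not tested. Over all lists, the members included, 8 of 73 genes passed 2-fold in either direction in mast cells, against 7.49% of all genes. In basophils 6 of 41 did, against 15.4%, and in T cells 4 of 84, against 6.1%.

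Of 18 genes known to be induced by IL-4 or IL-13, 15 had at least 20 UMIs in macrophages, and their median log2 ratio was 0.26 against -0.13 for all genes. This lay within the range of the other lists in macrophages. Their medians ran from -0.23 for type 1 and type 17 genes, listed for contrast, to 0.45 for the regulators of mast cells and basophils. *Fcer2a* (1.45, on 6 and 28 UMIs), *Cd209a* (1.10, on 15 and 55 UMIs) and *Clca1* (1.13, on 119 and 443 UMIs), an epithelial goblet cell gene, were at least 2-fold higher in Mir34a_Mye_KO, 3 of 15 against 1.74% of all genes. In the same macrophages, all 7 dendritic cell markers were detected at a summed level of 19.2 and 33.2 per 10000, all 7 B cell markers at 12.8 and 27.4 and all 7 epithelial markers at 14.4 and 8.93, and their part in this was not tested. *Arg1*, the arginase of alternatively activated macrophages, was lower, at 6.16 against 2.35 per 10000 (-1.39, -1.43 to -1.35), which is 1 of 15 against 4.6% of all genes. In mast cells, *Clec10a* (2.32, on 2 and 27 UMIs) was higher and *Chil3* (-1.80, on 40 and 31 UMIs) and *Ccl24* (-1.70, on 18 and 15 UMIs) were lower, 1 and 2 of 10 genes against 1.66% and 5.83% of all genes. In these mast cells the dendritic cell markers summed to 0.875 and 1.55 per 10000, the neutrophil markers to 9.22 and 7.57 and the epithelial markers to 19.2 and 10.3, beside the B cell markers given above, and their part was not tested. In basophils, *Tgm2* (1.46, 0.75 to 2.24) and *Chil3* (2.12, on 2 and 20 UMIs) were higher, beside the same difference in mast cell markers and in cells above the line. They were 2 of 3 genes of this list with at least 20 UMIs, against 8.34% of all genes higher in basophils. Over all lists the share past 2-fold in basophils was near that of all genes, at 6 of 41 against 15.4%. *Pdcd1lg2*, which encodes PD-L2 and was named for its level, stood at 1.88 and 1.93 per 10000 in mast cells and 1.28 and 1.04 in basophils.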

How the data were processed

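Cells of pooled tumors had been sequenced as 1 library per genotype. According to the methods and the submitters' processing notes, the authors aligned reads to mm10 with Cell Ranger 7.2.0, kept cells with over 200 expressed genes and under 25% mitochondrial RNA, removed doublets with Scrublet and named cell types from marker genes in Seurat. In the deposited table, 6600 cells stood at or above 25% mitochondrial UMIs. The deposited values are on a natural log scale: the authors divided each UMI count by the total of its cell, multiplied by 10000, added 1 and took the logarithm in Seurat. Whole UMIs were recovered from them, with a largest deviation of 1.5e-10 from a whole number, and were summed by annotated cell type and library. No further doublet caller was run.

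Levels are summed UMIs per 10000 with exact 95% Poisson intervals, ratios have exact conditional binomial intervals and shares Clopper-Pearson intervals (Python 3.11.15, numpy 2.4.6, scipy 1.17.1, pandas 2.3.3, matplotlib 3.10.9). The ratio intervals were run on simulated summed counts drawn from a Poisson distribution, for which they are exact. That run held no single cells, so it cannot show how the intervals fare with the uneven spread over cells seen here. A count of 0 allows up to 3 counts, used as an upper bound alone. The exact interval of a count of 0 ends higher, at 0.0113 per 10000 for *Il5* in Mir34a_F/F mast cells. Both libraries are single samples, so no test, SD or p-value was computed. The genes named are the 9 members, from each pathway list the 3 genes with the highest level in mast cells or basophils (mean of both libraries) and any gene past 2-fold with at least 20 UMIs, the 3 genes with the highest correlation to each member over genes with at least 100 UMIs (pseudocount 0.05), and cell type markers. The members and lists were chosen with earlier results of these data known. Alternatives covered a mean over cells, thinning to 1000 UMIs, cell filters, the total, the pseudocount, the highest and deepest cells, background and cell selection.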

Additional observations from a re-analysis of the deposited data

Results flagged for a closer look

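*Il4ra* moved in opposite directions between the libraries in different cell types. In B cells the log2 ratio of Mir34a_Mye_KO over Mir34a_F/F was -0.62, whereas it was 0.36 in macrophages, 0.29 in neutrophils, 0.39 in T cells, 0.34 in mast cells and 0.26 in epithelial cells, each with a counting interval that excludes 0. *Il13ra1* had a log2 ratio of -0.16 in epithelial cells and 0.17 in macrophages. *Gata2* had one of -0.62 in basophils and 0.42 in mast cells, and the log2 ratio of basophils over mast cells accordingly was 0.63 in Mir34a_F/F and -0.41 in Mir34a_Mye_KO. With 1 library per genotype, none of these differences was tested. The signs in mast cells and epithelial cells for *Il4ra*, and both signs for *Il13ra1*, also depended on the processing. The log2 ratio of *Gata2* in basophils over mast cells of Mir34a_Mye_KO was 0.016 after thinning and -0.04 with the basophils below the *S100a8* and *S100a9* line. It was 1.49 with cells of both types chosen by their proteases, which left 1 basophil in this library.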

How the results depend on the processing

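No paired analysis was possible because each genotype is 1 library, and for the same reason no replicate could be left out. Of 280 values of 33 ratios under alternative settings, 220 stayed within the counting interval. A further 9 had the opposite sign to a ratio whose interval excluded 0. The other 51 lay outside the interval, and changes of sign were not counted where the interval included 0. Stricter cell filters (500 genes, under 10% mitochondrial UMIs) and a pseudocount of 0.05 moved none. The cause of the changes below was not tested. After thinning to 1000 UMIs, the log2 ratio of Mir34a_Mye_KO over Mir34a_F/F was 0.37 for *Il4* and 1.04 for *Il13* in mast cells, 0.12 for *Il4ra* in macrophages, -0.068 for *Il4ra* in mast cells, -0.11 for *Il4ra* in epithelial cells and -0.12 for *Il13ra1* in macrophages. As a mean over cells it was 0.13 for *Il4ra* in macrophages and -0.13 in epithelial cells. *Il4ra* in macrophages stood at 0.59 with the erythroid level subtracted, *Il13* in mast cells at 1.57 without the deepest 5% of cells, and *Il13ra1* in epithelial cells at 0.16 with immunoglobulin, mitochondrial, hemoglobin and ribosomal RNA-like genes left out of the total.

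For basophils over mast cells, leaving out the 5 highest cells of each type gave log2 ratios of 0.71 (Mir34a_F/F) and -0.81 (Mir34a_Mye_KO) for *Il4* and of 0.50 and -0.11 for *Il13*. With basophils below the *S100a8* and *S100a9* line, a choice made after seeing the data, they were 1.74 and 1.57 for *Il4* and 2.30 and 1.81 for *Il13*. As a mean over cells, Mir34a_Mye_KO gave 0.73 for *Il4* and 1.49 for *Il13*, and after thinning 1.93 for *Il13* and 0.016 for *Gata2*. With cells chosen by their proteases, which left 7 and 1 basophils, Mir34a_F/F gave 2.54 for *Il4* and 0.89 for *Il13*, and Mir34a_Mye_KO gave 1.49 for *Gata2*. At 1000 UMIs per cell, the share of cells with *Il4* was 13.7% and 12.6% in mast cells and 29.2% and 20% in basophils, and that with *Il13* was 5.39% and 9.07% in mast cells and 16.7% in Mir34a_F/F basophils. Among T cells of Mir34a_F/F with at least 2 cytokine UMIs, *Gata3* was found in 100% of those with *Il5* (3 of 3) and 0% of those with *Il13* (0 of 2), and in Mir34a_Mye_KO in 4 of 5 and 3 of 5. With 1 UMI in each library as the only minimum, the genes of all lists past 2-fold in either direction numbered 14 of 83 in mast cells (18.8% of all genes tested), 11 of 60 in basophils (35% of all), 7 of 88 in T cells (13.4%) and 8 of 86 in macrophages (13.4%). With at least 20 UMIs they numbered 8 of 73 (7.49%), 6 of 41 (15.4%), 4 of 84 (6.1%) and 8 of 83 (6.33%). With a pseudocount of 0.5, 13 of the 27 genes of like pattern were named again.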

Other observations

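Of 10 genes of type 1 and type 17 immunity listed for contrast, 3 were at least 2-fold higher in the macrophages of Mir34a_Mye_KO, as were 1.74% of all genes tested there, and none was 2-fold lower, as were 4.6%. *Il10*, an inhibitory cytokine, stood at 0.384 and 0.813 per 10000 (747 and 2700 UMIs, log2 1.08, 0.97 to 1.20). *Il22* (41 and 176 UMIs, log2 1.33) and *Il23r* (49 and 230 UMIs, log2 1.46) are genes of type 17 lymphocytes, and were higher in annotated T cells, at 1.84 and 1.39 per 10000 for *Il22* and 1.15 and 1.91 for *Il23r*, than in macrophages (0.0211 and 0.0530, 0.0252 and 0.0692). In mast cells, *Il17a* was at 0.114 and 0.257 per 10000 (log2 1.18, 0.67 to 1.72), against 7.71 and 8.85 in T cells. *Irf4* was higher in Mir34a_Mye_KO in T cells (0.573 and 0.943 per 10000, log2 0.72, 0.60 to 0.84) and macrophages (log2 0.84, 0.58 to 1.10) as well as in mast cells. The 7 B cell markers summed to 13.0 and 26.7 per 10000 in the same T cells, 12.8 and 27.4 in macrophages and 10.1 and 45.1 in mast cells, the 7 dendritic cell markers to 19.2 and 33.2 in macrophages, and the part of either was not tested.

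Among the genes known to be induced by IL-4 or IL-13, *Ccl24*, an eosinophil chemokine, was lower in the macrophages of Mir34a_Mye_KO (2.38 and 1.32 per 10000, log2 -0.85, -0.91 to -0.79), as was *Chil3* (1.97 and 1.48, log2 -0.41, -0.47 to -0.35). *Clec10a* (log2 0.78, 0.51 to 1.06) and *Tgm2* (log2 0.19, 0.14 to 0.23) were higher there. The list thus held members on both sides in the same cells.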
